A study of Sus scrofa with 6 samples.

Results

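The subject here is CTH (cystathionine gamma-lyase) and its partners in sulfur amino acid metabolism in pig brain. A list of 9 genes was named, CTH, CBS, MPST, MAT2A, AHCY, MTR, GCLC, GCLM and GSS, and the 6 with a row that could be matched by symbol were taken from 18225 genes in the table: CTH, MAT2A, AHCY, MTR, GCLC and GSS. Their identifiers are ENSSSCG00000003789 for CTH, ENSSSCG00000022300 for MAT2A, ENSSSCG00000007278 for AHCY, ENSSSCG00000010143 for MTR, ENSSSCG00000001488 for GCLC and ENSSSCG00000007287 for GSS. CBS, MPST and GCLM were not analysed here. CTH was selected on its FPKM values, which were lower in wild boar than in Rongchang, so its breed difference is a description and carries no test. The partners were named by function. Polyadenylated RNA was sequenced from the brains of 3 Rongchang pigs, a domesticated breed of Sus scrofa, and 3 wild boars of the same species. All 6 animals were 210 days old, no treatment is named for either group, and the labels give no brain region. Each library carries its own animal number (1 to 3), and nothing more is said of the animals, so a p-value here speaks only of the spread among these 6 libraries, which may be technical in part.

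Methionine is first joined to ATP to make S-adenosylmethionine, the methyl donor of the cell. After the methyl group is given away, S-adenosylhomocysteine is split to homocysteine, which is either methylated back to methionine or passed through transsulfuration to cystathionine and then to cysteine. CBS makes cystathionine and CTH splits it, releasing cysteine, and both enzymes can also release hydrogen sulfide. Cysteine is the scarce building block of glutathione, the main thiol antioxidant of brain cells, and astrocytes supply neurons with glutathione precursors.

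Values are FPKM (fragments counted per kilobase of transcript and per unit of sequencing depth), given with the SD over n = 3 animals. Differences, in log2(FPKM + 1), are those of wild boar from Rongchang, a scale that understates the change of low genes. In bulk tissue, fewer cells of a type and less RNA per cell cannot be told apart. The median of the 13152 genes tested lay at −0.13 on that scale. Some differences are also given relative to the median gene, and the others still include that shift.

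CTH, which cuts cystathionine to yield cysteine, was the member with the lowest level and the largest breed difference. Its level was 2.69, 2.93 and 3.31 FPKM in Rongchang 1, 2 and 3, and 1.51, 1.46 and 1.42 FPKM in wild boar 1, 2 and 3. All 3 wild boars lay below all 3 Rongchang pigs. The highest wild boar stood at 56.0% of the lowest Rongchang pig. Mean levels were 2.98 ± 0.311 FPKM in Rongchang and 1.46 ± 0.0443 in wild boar, so the wild boar mean was 49.0% of the Rongchang mean. The difference was −0.69 in log2(FPKM + 1), or −0.56 relative to the median gene. Of all genes tested, 11.4% lay lower in wild boar with no overlap between the breeds. CTH, chosen for its lower wild boar values, was one of them. The wild boar values were also close together: the coefficient of variation of CTH was 3.03% in wild boar and 10.5% in Rongchang. Among the 2545 genes with a mean within 1.5-fold of that of CTH, the median coefficient was 21.3% in wild boar and 20.0% in Rongchang. CTH was chosen on these same values, and such a choice can favour a small spread. The spread is therefore described only and is no separate support for the breed difference.

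CTH was also read on 2 other scales. After each library was scaled to the same median, CTH stood at 2.64, 2.75 and 3.01 in Rongchang and 1.65, 1.46 and 1.56 in wild boar, and the wild boar mean was 55.5% of the Rongchang mean. With the 13 mitochondrially encoded genes removed and the libraries brought to one sum, CTH stood at 2.88, 3.04 and 2.92 in Rongchang and 1.46, 1.51 and 1.47 in wild boar. The breeds did not overlap on any of these 3 scales. Among Rongchang pigs, animal 3 was the highest for CTH on the deposited scale and animal 2 after the mitochondrial genes were removed.

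**Figure D1:**
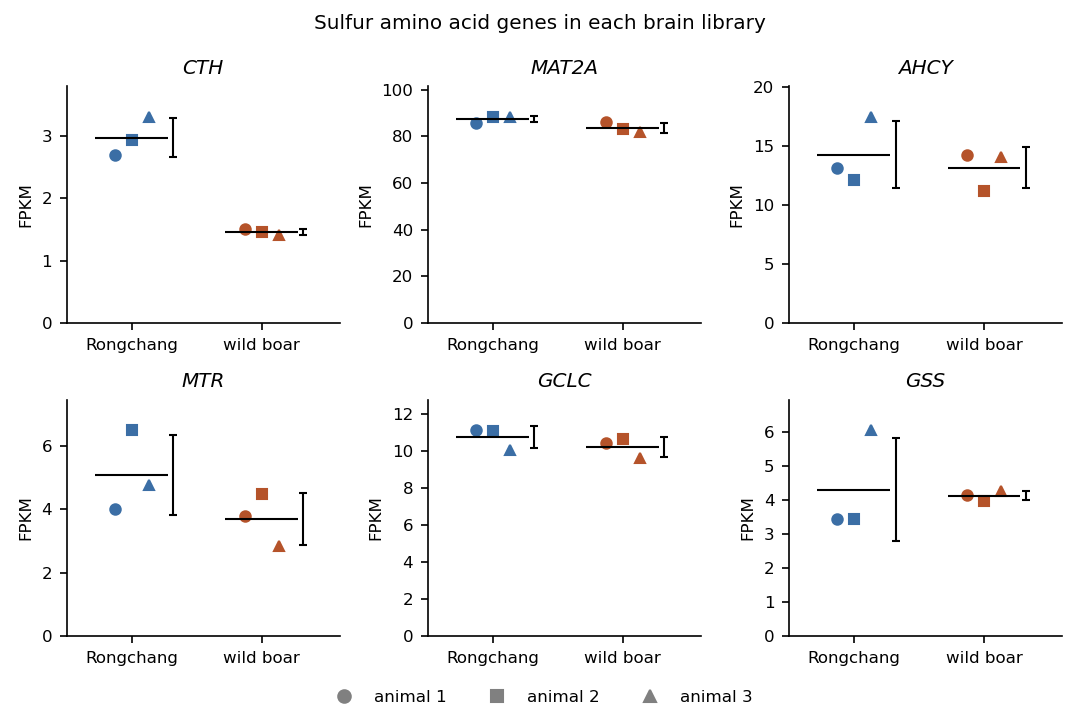
FPKM of the 6 genes in each brain library (vertical axis, FPKM, from 0), with Rongchang pigs in blue and wild boars in orange. Marker shapes give the animal number, horizontal lines the mean and bars the SD over 3 animals. CTH is the panel in which the breeds do not overlap, with 2.69 to 3.31 FPKM against 1.42 to 1.51, while GSS is spread by Rongchang 3 at 6.05.

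The methionine cycle was covered by MAT2A, AHCY and MTR. MAT2A, which makes S-adenosylmethionine outside the liver, was the most abundant member and among the steadiest. It stood at 85.8, 88.3 and 88.1 FPKM in Rongchang and 86.0, 83.1 and 81.6 FPKM in wild boar. Wild boar 1 lay within the Rongchang range and the other 2 wild boars lay under it. The difference was −0.06 (95% interval −0.41 to 0.28; limma, adjusted p = 0.931), and 0.07 relative to the median gene. The coefficient of variation of MAT2A was 1.58% in Rongchang and 2.71% in wild boar, where the median of the 622 genes within 1.5-fold of its level was 17.6% and 17.0%.

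AHCY, which splits S-adenosylhomocysteine into homocysteine and adenosine, stood at 13.1, 12.1 and 17.4 FPKM in Rongchang and 14.3, 11.1 and 14.1 FPKM in wild boar. The breeds overlapped. Animal 2 was the lowest of its breed in both, while the highest was animal 3 in Rongchang and animal 1 in wild boar. Its difference was −0.10 (95% interval −0.52 to 0.32; limma, adjusted p = 0.912). Without Rongchang 3 the AHCY difference was 0.05. MTR, the vitamin B12-dependent methionine synthase that returns homocysteine to methionine, stood at 4.02, 6.48 and 4.77 FPKM in Rongchang and 3.78, 4.48 and 2.85 FPKM in wild boar. Animal 2 was the highest of its breed in both, and wild boar 2 lay above Rongchang 1. MTR had the largest difference of the 5 partners, at −0.37 (95% interval −0.84 to 0.10), or −0.24 relative to the median gene, and did not pass (limma, adjusted p = 0.794, unadjusted p = 0.109). In the fit blocked on animal number, the unadjusted p for MTR was 0.0399 and its adjusted p in limma was 0.276. With the block and median scaling its difference was −0.23 (unadjusted p = 0.143; limma, adjusted p = 0.574). Without Rongchang 2 the MTR difference was −0.21, and without wild boar 3 it was −0.23.

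Glutathione synthesis was covered by GCLC and GSS. GCLC, the catalytic subunit of the ligase that joins glutamate to cysteine, stood at 11.1, 11.1 and 10.1 FPKM in Rongchang and 10.4, 10.6 and 9.61 FPKM in wild boar. Animal 3 was the lowest of its breed in both, and the ranges overlapped. Its difference was −0.07 (95% interval −0.38 to 0.25; limma, adjusted p = 0.923). GSS, the synthetase that adds glycine to complete glutathione, stood at 3.44, 3.44 and 6.05 FPKM in Rongchang and 4.14, 3.99 and 4.27 FPKM in wild boar. All 3 wild boars lay between Rongchang 1 and 2, which were lower, and Rongchang 3, which was higher. The GSS difference was −0.01 (95% interval −0.48 to 0.45; limma, adjusted p = 0.989), and 0.21 without Rongchang 3.

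None of the 5 partners passed (limma, 0 at an adjusted p under 0.05 and 0 at an unadjusted p under 0.05), and none was free of overlap between the breeds. Over all genes tested, 0.00760% passed at an adjusted p under 0.05. At an unadjusted p under 0.05, 5.42% were lower and 0.578% higher in wild boar, and 11.4% lay lower and 1.12% higher with no overlap. The 5 partners all lay below 0, as did 77.9% of all genes tested, but 4 of the 5 lay above the median gene and only MTR lay below it. Their median difference was −0.07, or 0.07 relative to the median gene. With the block, 1 of the 5, MTR, was lower at an unadjusted p under 0.05, and so were 16.0% of all genes tested, with 1.41% higher. With the block and median scaling, 0 of the 5 reached that mark, against 5.02% lower and 5.47% higher of all genes tested. The intervals include differences in either direction for all 5, so these data do not show that partner levels were alike in the breeds. After median scaling the differences of MAT2A, AHCY, GCLC and GSS were above 0, so no direction is read from them.

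Because FPKM are given per length, levels can be set side by side between genes of one library. In Rongchang the order of mean levels was MAT2A at 87.4 FPKM, AHCY at 14.2, GCLC at 10.7, MTR at 5.09, GSS at 4.31 and CTH at 2.98. In wild boar it was MAT2A at 83.6, AHCY at 13.1, GCLC at 10.2, GSS at 4.14, MTR at 3.70 and CTH at 1.46. MTR and GSS changed places but overlapped in both breeds. CTH was last in both, and in Rongchang its highest library, at 3.31 FPKM, lay just under the lowest GSS value of 3.44.

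Ratios within a library do not depend on how libraries were scaled to each other, and they repeat the CTH pattern by construction of the choice. The log2 ratio of CTH to MAT2A was −5.00, −4.91 and −4.74 in Rongchang and −5.84, −5.83 and −5.85 in wild boar. CTH thus stood at 3.39% of the MAT2A level in Rongchang and 1.75% in wild boar, as geometric means over animals. Relative to GCLC, the log2 ratio was −2.04, −1.92 and −1.60 in Rongchang and −2.79, −2.87 and −2.76 in wild boar. Relative to GSS it was −0.36, −0.23 and −0.87 against −1.46, −1.46 and −1.59, and relative to AHCY −2.29, −2.05 and −2.40 against −3.24, −2.94 and −3.31. The breeds stayed apart in those 4 ratios. They overlapped in the ratio to MTR, at −0.58, −1.14 and −0.53 in Rongchang and −1.33, −1.62 and −1.01 in wild boar, where wild boar 3 lay above Rongchang 2.

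**Figure D2:**
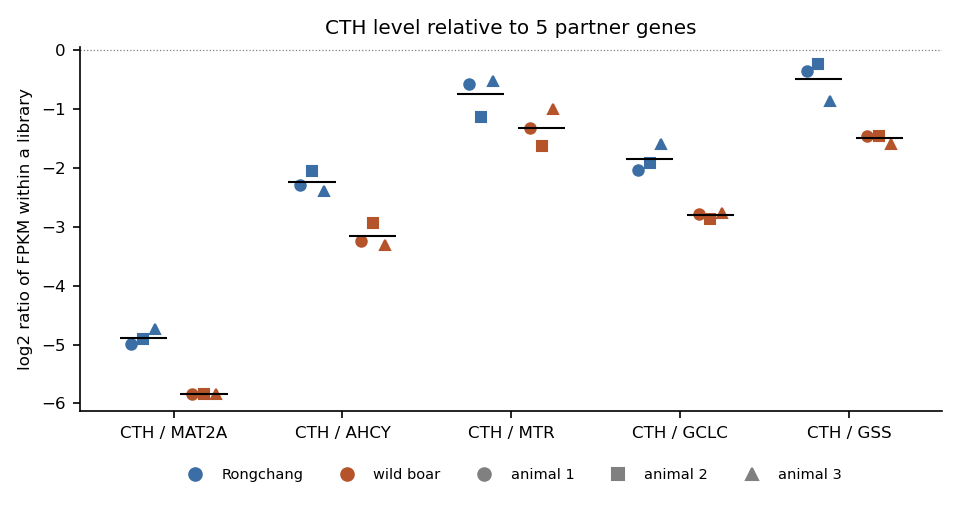
Log2 ratio of the FPKM of CTH to that of each of 5 partners within the same library (vertical axis), Rongchang in blue and wild boar in orange, with marker shapes for the animal number and lines for the mean. The ratio to MAT2A is the tightest in wild boar (−5.85 to −5.83), and the ratio to MTR is the one in which the breeds overlap.

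The wider pathway was described with 9 lists that hold 76 further genes, of which 51 had a row and 45 were tested. None of the 45 passed (limma, 0 at an adjusted p under 0.05), and 4 were lower in wild boar at an unadjusted p under 0.05 with 0 higher, where 5.42% of all genes tested were lower at that mark. In the fit blocked on animal number, 10 of the 45 were lower and 0 higher at that mark, against 16.0% lower and 1.41% higher of all genes tested in the same fit. The 10 were the 4 above (SLC43A2, SLC1A1, OPLAH and SESN2) with CNDP2, SLC1A4, TST, PSAT1, GOT1 and KYAT3, and their adjusted p in limma with the block ran from 0.228 to 0.281. After median scaling 1 of the 45 was lower without the block (1.87% of all genes lower and 1.89% higher), and 3 were with it (5.02% lower and 5.47% higher). Of the 45, 39 lay below 0 (86.7%, against 77.9% of all genes tested) and 28 below the median gene. Their median difference was −0.17, which is −0.04 once the median gene is subtracted. The breeds did not overlap for 7 of the 45, all lower in wild boar, and 11.4% of all genes tested were lower with no overlap.

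Uptake of cysteine and methionine had the lowest list median, at −0.33 over 7 genes tested. Of these, 5 lay below 0 and 4 below the median gene. SLC43A2, a carrier of neutral amino acids that include methionine, stood at 13.6, 11.9 and 15.9 FPKM in Rongchang and 8.0, 9.88 and 7.38 FPKM in wild boar. The breeds did not overlap. Its difference was −0.65 (95% interval −1.04 to −0.26; unadjusted p = 0.00514; limma, adjusted p = 0.746), next in size to that of CTH among the members and pathway genes tested. SLC1A1, a neuronal glutamate transporter that also carries cysteine, stood at 11.1, 11.2 and 13 FPKM in Rongchang and 7.22, 8.83 and 9.96 FPKM in wild boar, again without overlap. Its difference was −0.41 (unadjusted p = 0.0350; limma, adjusted p = 0.789). The neutral amino acid exchanger SLC1A4, which the naming rule did not select and which was chosen after its values were seen, had no overlap either, at 10.4 ± 2.32 and 7.44 ± 1.11 FPKM (−0.42, limma adjusted p = 0.789). The most abundant of the list, SLC3A2, the heavy chain shared by several amino acid exchangers, stood at 38.9 ± 4.32 and 41.9 ± 11 FPKM (0.08), and at −0.12 without wild boar 3, which held its highest value of 54.7 FPKM.

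Breakdown and rebuilding of glutathione gave 6 genes tested, all below the median gene, with a list median of −0.26. OPLAH, which opens 5-oxoproline to glutamate, stood at 4.45, 3.63 and 4.28 FPKM in Rongchang and 2.58, 3.36 and 3.01 FPKM in wild boar, with no overlap. Its difference was −0.36 (unadjusted p = 0.0417; limma, adjusted p = 0.789). CNDP2, a cytosolic dipeptidase, was the most abundant of the list at 44.9, 32.5 and 46.0 FPKM in Rongchang and 32.4, 22.9 and 34.7 FPKM in wild boar. Animal 2 was the lowest of its breed in both, and the breeds overlapped. The CNDP2 difference was −0.45 (unadjusted p = 0.0730; limma, adjusted p = 0.789), with a blocked unadjusted p of 0.00207, and −0.27 without wild boar 2. CNDP2 was lower in the wild boar of each same-numbered pair, as were MTR, TST, KYAT3, GOT1 and PSAT1, among others. The pairing is uncertain, and the share of all genes placed in this way was not counted. After median scaling the blocked unadjusted p of CNDP2 was 0.0227 (limma, adjusted p = 0.449). The glutathione reductase GSR, named after its values were seen, stood at 4.84 ± 0.413 and 4.13 ± 0.117 FPKM without overlap (−0.19).

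In sulfide oxidation, 4 of the 5 genes tested lay below 0 and 3 below the median gene. The list median was −0.24, or −0.11 relative to the median gene. TST, the mitochondrial rhodanese that transfers sulfur, stood at 17.5, 16.2 and 37.0 FPKM in Rongchang and 14.5, 11.5 and 17.7 FPKM in wild boar. Rongchang 3 stood apart, and without it the TST difference went from −0.58 to −0.21 (with all libraries, limma adjusted p = 0.792). ETHE1, the persulfide dioxygenase of mitochondria, was also highest in Rongchang 3, at 8.44, 8.26 and 15.1 FPKM against 9.20, 7.01 and 8.09 FPKM in wild boar, and went from −0.31 to −0.05 without that library. KYAT3, an aminotransferase of kynurenine and of cysteine conjugates, was the most abundant, at 34.4 ± 7.24 and 29.0 ± 6.16 FPKM (−0.24). Its difference was −0.09 without Rongchang 3, −0.06 without wild boar 2 and −0.39 without Rongchang 2. The gene above 0 was SQOR, which oxidises hydrogen sulfide in mitochondria, at 5.81, 6.28 and 8.90 FPKM in Rongchang and 12.7, 5.50 and 9.92 FPKM in wild boar (0.33, limma adjusted p = 0.857). It was named after its values were seen, and its breeds overlapped.

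In the remaining methionine cycle genes, 4 of 5 lay below 0 and 3 below the median gene. AHCYL1, a protein related to AHCY, was the most abundant at 88.5, 86.0 and 97.0 FPKM in Rongchang and 84.8, 74.1 and 82.8 FPKM in wild boar. The breeds did not overlap, by a margin under that between animals (−0.17, limma adjusted p = 0.857). AHCYL2 stood at 21.2 ± 2.10 and 18.3 ± 3.61 FPKM (−0.21), with −0.09 without wild boar 3 and −0.35 without wild boar 1. All 3 genes tested for the supply of folate units lay below the median gene. MTHFD1, which interconverts folate units, stood at 16.8 ± 4.28 and 13.5 ± 2.53 FPKM (−0.28). Its difference was −0.14 without Rongchang 3 or wild boar 2 and −0.49 without Rongchang 1. Methionine salvage, which rebuilds methionine from the remains of polyamine synthesis, had 6 of 7 genes below 0 and 4 below the median gene. Its most abundant gene ENOPH1 stood at 35.6 ± 5.95 and 33.7 ± 4.75 FPKM (−0.08), MRI1 at 4.54 ± 1.62 and 3.44 ± 0.376 FPKM (−0.28) and ADI1 at 29.9 ± 5.95 and 25.3 ± 3.85 FPKM (−0.22). The MRI1 difference was −0.09 without Rongchang 3 and −0.53 without Rongchang 2, and that of ADI1 was −0.12 without Rongchang 1 or wild boar 2 and −0.39 without Rongchang 2.

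Cysteine breakdown and taurine synthesis gave 3 genes tested, all below 0 and 2 of them below the median gene. GOT1, an aspartate aminotransferase that also acts on cysteine sulfinate, stood at 111, 142 and 157 FPKM in Rongchang and 90.2, 130 and 118 FPKM in wild boar (−0.27). Animal 1 was the lowest of its breed in both, and the GOT1 difference was −0.12 without wild boar 1, −0.17 without Rongchang 3 and −0.42 without Rongchang 1. FMO1, a flavin monooxygenase, stood at 3.57 ± 0.432 and 2.77 ± 1.20 FPKM (−0.33), and at −0.03 without wild boar 2, its lowest library at 1.39 FPKM. For the activation of sulfate, PAPSS2, which makes the sulfate donor, stood at 15.7 ± 3.96 and 14.5 ± 3.70 FPKM (−0.11), and BPNT1, a phosphatase of that cycle, at 16.0 ± 5.54 and 14.2 ± 4.0 FPKM (−0.15).

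Regulators of the amino acid and oxidant responses, with the serine-making enzymes, had 6 of 7 genes below 0, but 5 of the 7 lay above the median gene. SESN2, a leucine sensor induced by stress, stood at 3.37, 3.76 and 3.54 FPKM in Rongchang and 2.49, 3.01 and 2.41 FPKM in wild boar. The breeds did not overlap, and the SESN2 difference was −0.33 (unadjusted p = 0.0490; limma, adjusted p = 0.789). PSAT1, of the pathway that makes serine, the other substrate of transsulfuration, was the most abundant of the list at 74.6, 40.0 and 67.6 FPKM in Rongchang and 53.7, 33.5 and 58.5 FPKM in wild boar. Animal 2 was the lowest of its breed in both, and the breeds overlapped (−0.31, limma adjusted p = 0.860). The PSAT1 difference was −0.06 without wild boar 2, −0.14 without Rongchang 1 and −0.58 without Rongchang 2. Across the members other than CTH and the pathway genes, the alternatives in processing gave 0 calls at an adjusted p under 0.05, with adjusted p from 0.228 to 1.

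**Figure D3:**
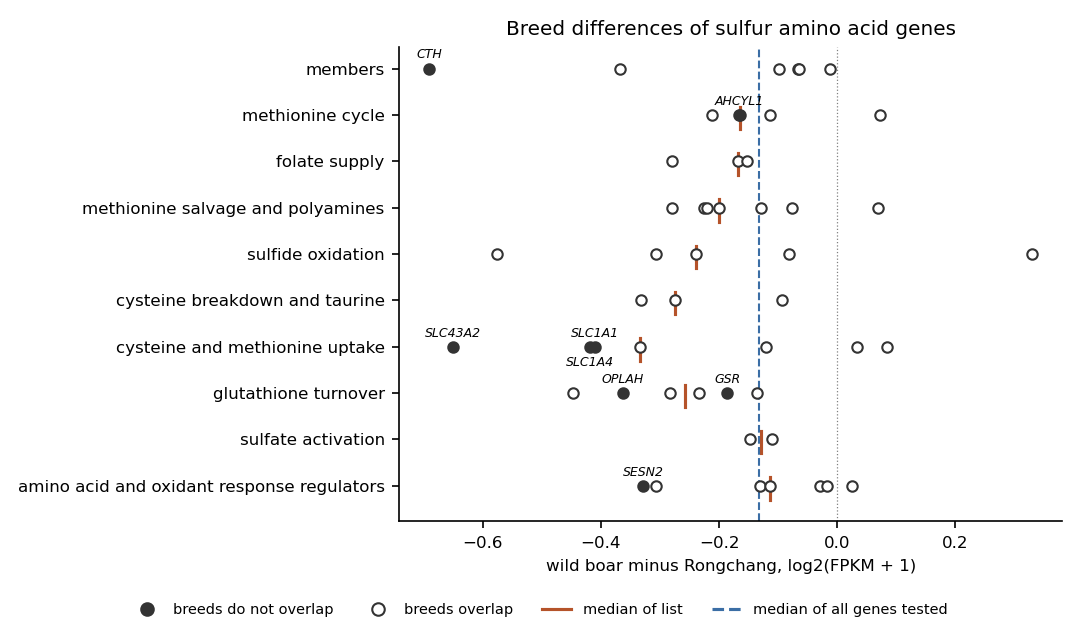
Difference of breed means in log2(FPKM + 1), wild boar minus Rongchang (horizontal axis), for the 6 members and the 45 pathway genes tested, by list. Filled points are genes whose breeds do not overlap, short lines the median of a list and the dashed line the median of all genes tested (−0.13). CTH (−0.69) and SLC43A2 (−0.65) lie farthest to the left.

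The genes whose values followed CTH most closely were ranked by Pearson r over the 6 libraries among 7506 genes with a symbol and a mean of at least 2 FPKM. The first 5 were ZNF346 (r = 0.996), CD276 (0.996), FHL5 (0.991), DBT (0.990) and ZNF207 (0.990), where the median gene compared had r = 0.363. The points form 1 cluster per breed and share the scaling of their libraries, so r serves here only to rank genes. ZNF346, a zinc finger protein that binds double-stranded RNA, stood at 4.88, 4.94 and 5.34 FPKM in Rongchang and 3.20, 3.06 and 3.10 FPKM in wild boar. CD276, the immune checkpoint protein B7-H3, stood at 3.94, 4.2 and 4.70 against 2.91, 2.90 and 2.78 FPKM. DBT, a subunit of the enzyme complex that degrades branched-chain keto acids, stood at 9.10, 8.83 and 9.81 against 6.77, 6.59 and 6.71 FPKM. FHL5 and ZNF207 differed by −0.44 and −0.43. All 5 had no overlap between the breeds, which the ranking favours, and each differed less than CTH, from −0.56 to −0.41. Among partners and pathway genes, r with CTH was highest for SLC43A2 (0.920), SESN2 (0.891), SLC1A1 (0.840) and MAT2A (0.836), and lowest for SQOR (−0.321).

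**Figure D4:**
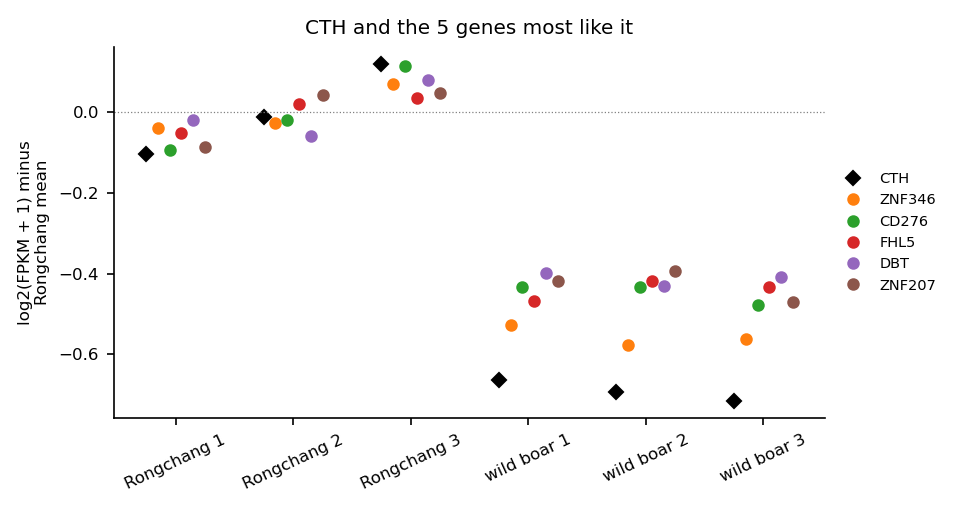
Level in log2(FPKM + 1) minus the Rongchang mean of the same gene (vertical axis) in each of the 6 libraries, for CTH (black diamonds) and the 5 genes ranked closest to it by Pearson r. In wild boar CTH lies the lowest of the 6 in all 3 libraries, and the 5 others differ by −0.56 to −0.41.

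The tissue was checked with marker lists for cell types and brain regions. Neurons and astrocytes were well represented, with SNAP25 at 786 to 1156 FPKM and the most abundant astrocyte marker, ALDOC, at 597 to 908 FPKM over the 6 libraries. The cortical gene TBR1 stood at 19.8 to 41.7 FPKM, while of the cerebellar genes ZIC1 stood at 2.65 to 4.42 FPKM and GABRA6, named after its values were seen, at 0.03 to 0.19 FPKM. Summed astrocyte markers (7 of 8 with a row) ran from 1797 to 1985 FPKM in Rongchang and from 1557 to 1934 in wild boar, and those of neurons (6 of 7) from 1689 to 2356 and from 1614 to 2221. Microglia markers (4 of 6) ran from 48.2 to 84.4 and from 37.6 to 84.2, with C1QA the most abundant. These 3 sums overlapped between the breeds, as did those of cerebellar genes (3 of 5), from 3.06 to 5.01 and from 3.45 to 4.72, and of cortical and hippocampal genes (3 of 5), from 35.7 to 60.3 and from 30.9 to 65.7. The astrocyte folate enzyme ALDH1L1, named after its values were seen, stood at 7.73, 6.78 and 7.61 FPKM in Rongchang and 5.62, 3.83 and 2.84 FPKM in wild boar without overlap (−0.75; unadjusted p = 0.00693; limma, adjusted p = 0.766), while 3 of the 7 astrocyte genes lay above 0. Of 4 oligodendrocyte genes tested 3 lay below 0 and 2 below the median gene. CNP (157 ± 17.6 and 119 ± 23.3 FPKM, −0.42, no overlap; limma, adjusted p = 0.789) and MAG (92.5 ± 17.4 and 70.6 ± 14.9 FPKM, −0.39, overlapping) are named here after their values were seen. The part of these markers in the CTH difference was not tested. Summed endothelial and pericyte markers (3 of 7) ran from 15.2 to 20.5 FPKM in Rongchang and from 23.6 to 25.7 in wild boar and did not overlap. PECAM1 and FLT1 were the highest, and each overlapped between the breeds. PDGFRB, named after its values were seen, did not overlap, at 3.48 ± 0.341 and 5.43 ± 1.87 FPKM (0.49, limma adjusted p = 0.789). The part of these 3 genes in the CTH difference was not tested. Erythroid markers (4 of 4), led by HBB, ran from 68.5 to 192 and from 58.5 to 276 FPKM, with HBM and SLC4A1 listed at 0 in some libraries, and choroid plexus markers (3 of 5) reached 34.6 in wild boar 3, through TTR at 34.2, and at most 3.70 elsewhere. Mitochondrially encoded genes made up 30.0% of FPKM in Rongchang 3 and 39.9% to 46.8% in the other 5 libraries, and their part in the high values of Rongchang 3 was not tested.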

How the data were processed

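The deposited table gives 1 FPKM value per gene and library for 18225 Ensembl identifiers. TopHat2 2.0.11, Cufflinks 2.2.1 and Cuffdiff are named without a role or order, per the submitters' processing notes. The unit was read from these tools and from the values (sums of 568921 to 687359 per library), since the file header names none. The sources used here do not state the genome build, the annotation or any scaling between libraries, and no coordinates are printed. FPKM hold no counts, so depth is unknown. Symbols were matched for 10937 identifiers. For a symbol on several identifiers, the one with the highest mean was used.

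Groups follow the labels. The breeds were compared on log2(FPKM + 1) with limma 3.58.1 (R 4.3.3) and a mean-variance trend. A gene was tested if 3 or more of the 6 libraries reached 1 FPKM, which kept 13152 genes. Tests were two-sided, with Benjamini-Hochberg adjustment over all of them and a threshold of 0.05. All 6 members passed that filter. The procedure was tested on simulated data with independent noise in each library and no shift common to all genes. The measured libraries differ in such a shift, so that test lends no support to the results here. Alternatives changed the pseudocount, filter, scaling, library weights, trend, block and libraries used. The members, lists and tests were chosen with earlier results of these data known. In each pathway list the most abundant gene and the 2 with the smallest unadjusted p were named, and of each marker list the most abundant gene where the list is described. Genes named outside that rule are said to be so. A gene that the rule selects and the sum of 1 marker list are not reported here.

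Deviations from the breed means of libraries with the same animal number had correlations of 0.28, 0.59 and 0.37. Each exceeds the bound of 0.1. On this evidence, with nothing in the labels, the numbers were treated as pairs in the blocked fits only. Deviations within a breed are tied to each other, so these correlations are not independent of each other. Rongchang 1 with wild boar 3 also reached 0.12, so the pairing is uncertain. The fit without it is the primary one. A lowest or highest animal number shared by the breeds is stated for some genes only. The share of all genes with such a match was not counted.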

Additional observations from a re-analysis of the deposited data

How the results depend on the processing

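CTH was chosen for lower wild boar values in these same libraries, so a kept sign is no support for its difference. Without overlap between the breeds, leaving out a library could not turn that sign. The CTH difference of −0.69 stayed below 0 in all 17 alternatives that could give it. It moved with the pseudocount, to −0.98 with 0.1 and −0.82 with 0.5, and with scaling, to −0.57 after median scaling (with or without the replicate block) and −0.56 after quantile normalization. Leaving out 1 library gave −0.74 to −0.63. CTH, MTR and GSS fall below a minimum mean of 5 FPKM and have no value there. Over all genes, 1 gene passed, against 3 with a pseudocount of 0.1, 0 with a minimum mean of 5 FPKM, 0 without both libraries numbered 2, and 0 to 4 on leaving out 1 library (0 without Rongchang 3, 4 without wild boar 1). At an unadjusted p under 0.05, 789 genes (713 lower, 76 higher) became 494 after median scaling (246 and 248), and 2289 with the replicate block. The block changed no call at the adjusted threshold among members or pathway genes.

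Small differences changed sign, and none of them passed. After median scaling, with or without the block, they were 0.11 for MAT2A, 0.064 for AHCY, 0.092 for GCLC, 0.13 for GSS, 0.0060 for AHCYL1, 0.094 for ENOPH1, 0.053 for PAPSS2 and 0.016 for BPNT1. Quantile normalization gave 0.051, 0.040, 0.088 and 0.13 for the first 4, 0.061 for ENOPH1, 0.026 for PAPSS2 and 0.0013 for BPNT1. Library weights gave 0.013 for AHCY, 0.11 for GSS, 0.0082 for MTHFD1 and 0.021 for ENOPH1. Removing mitochondrial genes gave 0.014 for GSS, and leaving out both libraries numbered 2 gave 0.23 for PAPSS2. Leaving out 1 library gave −0.20 to 0.048 for AHCY, −0.12 to 0.21 for GSS, −0.18 to 0.048 for ENOPH1, −0.12 to 0.19 for SLC3A2, −0.31 to 0.080 for PAPSS2 and −0.41 to 0.092 for BPNT1. The cause of these changes was not tested.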

Other observations

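The neighbours of CTH by gene order in the RefSeq table of Sscrofa11.1 were read for their levels. On one side the nearest gene tested was PTGER3, a prostaglandin receptor, at 1.03, 1.68 and 1.83 FPKM in Rongchang and 0.637, 2.69 and 0.576 FPKM in wild boar (log2 difference −0.23), followed by ZRANB2 (0.05) and NEGR1 (−0.28). On the other side ANKRD13C stood at 4.92, 5.28 and 4.98 FPKM in Rongchang and 3.46, 4.0 and 4.01 FPKM in wild boar (−0.33), followed by SRSF11 (0.09) and LRRC7 (−0.15). ANKRD13C was the 1 gene of these 6 whose breeds did not overlap, where 11.4% of all genes tested were lower in wild boar without overlap.

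The pathway genes were highest in Rongchang 3 more often than in any other library. That library held the highest value for 23 of the 45 pathway genes tested (51.1%) and for 34.5% of all genes tested. After median scaling the shares were 14 of 45 (31.1%) and 18.9%. Wild boar 2 held the lowest value for 21 of the 45 (46.7%), against 22.5% of all genes tested, and for 17 (37.8%) against 20.6% after median scaling. These shares are counts over genes of the same 6 libraries and were not tested. SLC43A2 had an unadjusted p under 0.05 in all 18 alternatives in limma, and its adjusted p ran from 0.228 to 1. It was named for its small unadjusted p, and the alternatives reuse the same 6 libraries, so this is no separate support. The share of all genes that do the same was not counted.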
